A study of Mus musculus with 1376 samples.

Results

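The cells described here are C1q-positive wells of dissociated mouse lung, that is, sorted wells whose reads carried the mRNA of complement C1q together with other macrophage genes. Members were chosen by their measured CPM: a cell belonged to the set if at least 3 of the 7 genes C1qa, C1qb, C1qc, Cx3cr1, Fcrls, Folr2 and C5ar1 each reached 20 CPM (a gene's read count scaled to 1000000 counts in every cell). The rule took in 87 cells, 6.32% of all cells of the series. Of these, 84 were on plates 045s and 046s, which hold male mouse 1, and were set against the other cells of the same plates, which made up 87.1% of the cells there. Another 3 were on the plate of male mouse 2, and 0 on the plate of female mouse 1. The number of cells on each plate stands with the processing.

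All cells came from ACTA2GFP:CSPG4dsRED mice, whose strain name gives a green reporter of Acta2, the smooth muscle actin gene, and a red one of Cspg4, the gene of the proteoglycan NG2. No treatment or mutation separated the groups: members and other cells of plates 045s and 046s shared mouse, strain and plates. The sample labels give ages of 8 to 30 weeks, the series description 8 to 21 weeks and male animals only, although 1 mouse is labelled female. Cells were sorted by fluorescence into 384-well plates and read by Smart-Seq2, a method that reads whole transcripts without molecular identifiers. No sort gate is given in the sources used here.

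C1q is the recognition molecule of the classical complement pathway. It is built from the chains encoded by C1qa, C1qb and C1qc, and it binds immune complexes and dying cells. Unlike most complement proteins, which the liver makes, C1q is made largely by tissue macrophages, and in the lung its mRNA marks interstitial macrophages, which lie in the tissue around airways and vessels, rather than the alveolar macrophages of the air spaces. Cx3cr1 encodes the fractalkine receptor, Fcrls a scavenger-like Fc receptor homologue, Folr2 folate receptor beta and C5ar1 the receptor for the complement fragment C5a.

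The 3 C1q genes lie side by side on the minus strand of chromosome 4 (GRCm38, GENCODE M21), with C1qb at chr4:136880129-136886187, C1qc at chr4:136889804-136893065 and C1qa at chr4:136895917-136898803. Fcrls lies at chr3:87250758-87263738, Cx3cr1 at chr9:119901616-120069879, Folr2 at chr7:101839988-101857194 and C5ar1 at chr7:16246743-16259540, also on the minus strand. Promoter windows are shown for C1qb, C1qc and Fcrls, the rule genes whose windows held the letters searched for. The search was made because Spi1, the gene of the ETS factor PU.1, had the largest ratio of members to other cells among called genes. PU.1 is known to bind purine-rich sites with the core GAGGAA. The windows run from 250 bases before to 50 bases after the annotated start, 5′ to 3′ on the gene's strand, from RefSeq on GRCm38.p6 (C1qb at chr4:136886151-136886450, C1qc at chr4:136892865-136893164, Fcrls at chr3:87263475-87263774). Capitals mark GAGGAA or its reverse complement TTCCTC.
C1qb: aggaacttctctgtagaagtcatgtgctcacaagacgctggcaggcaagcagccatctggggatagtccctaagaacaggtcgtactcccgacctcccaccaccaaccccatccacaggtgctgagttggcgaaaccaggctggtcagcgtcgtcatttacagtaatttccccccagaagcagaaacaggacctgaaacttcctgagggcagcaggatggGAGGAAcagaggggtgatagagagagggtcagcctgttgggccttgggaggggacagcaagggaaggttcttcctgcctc
C1qc: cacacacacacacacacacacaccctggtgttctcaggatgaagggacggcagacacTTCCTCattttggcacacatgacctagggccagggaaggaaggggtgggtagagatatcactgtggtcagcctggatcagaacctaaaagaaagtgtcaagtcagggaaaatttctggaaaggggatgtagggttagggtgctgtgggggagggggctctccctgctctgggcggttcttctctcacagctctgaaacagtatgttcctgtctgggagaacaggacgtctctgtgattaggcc
Fcrls: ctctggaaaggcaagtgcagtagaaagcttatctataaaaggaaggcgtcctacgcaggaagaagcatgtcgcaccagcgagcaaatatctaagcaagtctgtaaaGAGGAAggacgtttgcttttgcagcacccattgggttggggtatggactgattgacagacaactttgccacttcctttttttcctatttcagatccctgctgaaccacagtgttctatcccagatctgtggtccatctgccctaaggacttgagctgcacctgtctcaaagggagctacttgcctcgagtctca
The 3 windows, shown for that reason, held 1 match each, and the match in C1qc extended to GAGGAAGT on the opposite strand. GAGGAA was found on either strand in 9289 of 32851 mouse promoter windows of the same length (28.3%), and GAGGAAGT, which contains it, in 1052 (3.20%). The windows of Cx3cr1, Folr2 and C5ar1 held neither run of letters. A match is a run of letters and was not tested for binding, and windows for 6 of the 7 rule genes were matched by symbol.

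Members were 28 cells on plate 045s (8.02% of its cells, exact binomial 95% interval 5.40 to 11.4), 56 on 046s (18.4%, 14.2 to 23.2) and 3 on the plate of male mouse 2 (0.852%, 0.176 to 2.47). For the count of 0 on the plate of female mouse 1 the exact interval ends at 0.989%, and the limit of 3 counts is 0.809%. These intervals, like the Poisson intervals below, cover counting error only, and PCR reads without molecular identifiers are not independent molecules. Plate and mouse cannot be told apart for male mouse 2 and female mouse 1, and plates 045s and 046s hold 1 mouse, so members and other cells have no replicate check and no test is given. Counts per cell had medians of 259185 on 045s, 276501 on 046s, 172580 for male mouse 2 and 236324 for female mouse 1. No doublet caller was run.

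The members fell into 2 ranges of C1q. Summed over the 3 chains, 52 members of plates 045s and 046s had a lowest, median and highest level of 908, 8447 and 14852 CPM, and are called C1q-high wells here. The other 32 members of these plates had 46.1, 127.7 and 479.8 CPM and are called C1q-trace wells. The other cells had 0, 3.90 and 249.4 CPM. C1q mRNA thus took a median of 0.845% of all counts in C1q-high wells, up to 1.49%, against 0.0128% in C1q-trace wells. The split was set at 500 CPM after the values were seen: 3 members lay between 400 and 500 CPM, 1 between 500 and 1000 and 1 between 1000 and 2000. C1q-high wells numbered 22 on plate 045s (6.30% of cells) and 30 on 046s (9.87%), and C1q-trace wells 6 and 26.

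At the edge of the rule, the 21 cells with exactly 3 genes at 20 CPM had summed C1q of 46.1, 123.2 and 5945 CPM, and the 22 cells with 2 such genes had 35.7, 82.4 and 1378 CPM. In shallow wells 20 CPM is few reads: it stood for 1.03 counts in the shallowest C1q-trace well and 1.89 in the median one, against 4.94 in the median C1q-high well. All 7 genes reached 20 CPM in 26 cells, each of them a C1q-high well.

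**Figure D1:**
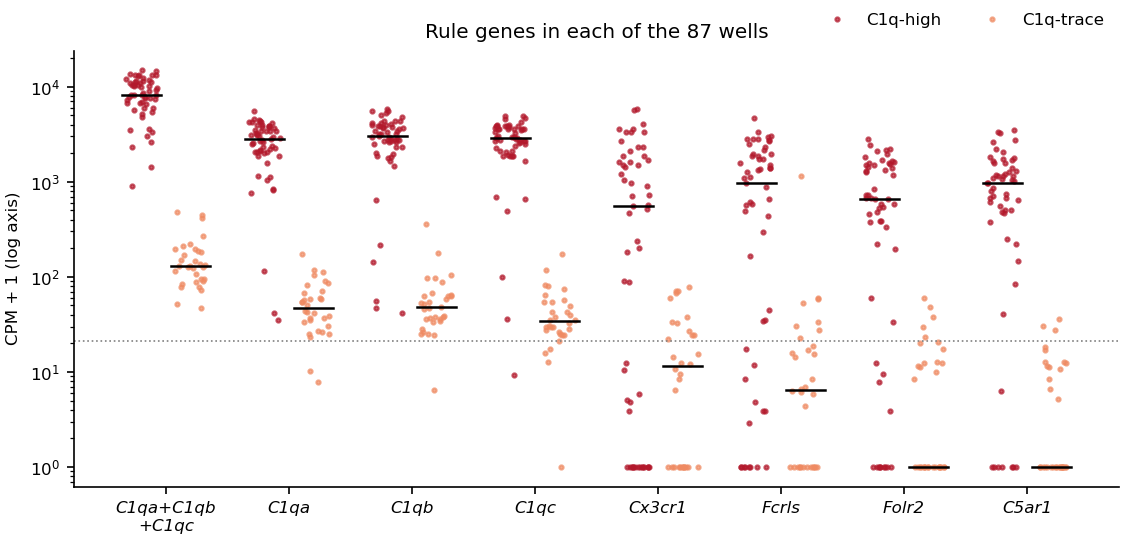
CPM + 1, on a log axis, of summed C1q and of each rule gene in the 87 members, with C1q-high wells (3 of male mouse 2 included) left of C1q-trace wells. Points are wells, bars medians and the dotted line 20 CPM, and summed C1q separates the sets by the choice of the split, while single chains overlap and Cx3cr1, Fcrls, Folr2 and C5ar1 were at 0 in some C1q-high wells.

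The 7 rule genes describe how the members were chosen and are given without a test. C1qa had 34.5, 2853 and 5532 CPM (lowest, median and highest) in C1q-high wells, 6.75, 45.9 and 174.5 CPM in C1q-trace wells and 0, 0 and 81.3 CPM in the other cells. C1qb had 40.4, 3068 and 5789 CPM, 5.47, 46.6 and 357.04 CPM and 0, 0 and 249.4 CPM in the same order, and C1qc had 8.24, 2869 and 4916 CPM, 0, 33.2 and 174.5 CPM and 0, 0 and 65.9 CPM. The lowest C1q-high wells overlapped the highest C1q-trace wells and other cells for each chain taken alone, while the summed levels of C1q-high wells lay above the others by the choice of the split. With every cell thinned to 50000 counts, a C1qa count was found in 100% of C1q-high wells, 90.6% of C1q-trace wells and 14.4% of other cells. Unthinned shares were 100%, 100% and 38.1%, at median depths of 246998, 94658 and 274396 counts.

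The other 4 rule genes varied more among the C1q-high wells. C5ar1 reached 20 CPM in 44 of 52 C1q-high wells, 3 of 32 C1q-trace wells and 3 other cells. Folr2 did so in 41, 5 and 0, Fcrls in 39, 8 and 0, and Cx3cr1 in 35, 12 and 2. Fcrls ran from 0 over a median of 1027 to 4743 CPM in C1q-high wells, with 0, 5.51 and 1160.4 CPM in C1q-trace wells and 0, 0 and 15.9 CPM in other cells. Cx3cr1 had 0, 640.5 and 5865 CPM in C1q-high wells and 0, 0 and 43.4 CPM in other cells. Only C5ar1 and C1qb had other cells above 200 CPM among the rule genes.

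Per kilobase of exon, pooled C1q-high wells held 3116 of Lyz2, the lysozyme of macrophages, 2695 of C1qb, 2578 of C1qa, 2269 of the invariant chain gene Cd74, 2195 of the apolipoprotein Apoe and 1413 of C1qc, all in CPM per exonic kilobase. On the same scale Fcrls had 581.2, Folr2 580.5, C5ar1 442.1 and Cx3cr1 311.5. The other cells held 2.93 of C1qa, 3.90 of C1qb and 1.57 of C1qc per kilobase. Among genes outside the mitochondrial genome with over 200 exonic bases, C1qb ranked 6, C1qa 7 and C1qc 16 on this scale, ranks that rest on wells selected for C1q. AY036118, CT010467.1, Gm42418 and Gm37376 ranked above C1qb and were at similar levels in other cells, and B2m, Fos, Selenop, Actb, Tmsb4x and Ctss lay between Apoe and C1qc.

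The label was checked against marker lists that leave out the rule genes. Of 10 macrophage genes, among them Csf1r, Adgre1, Cd68, Lyz2, Cd14 and Ctss, at least 3 reached 200 CPM in 52 of 52 C1q-high wells, 3 of 32 C1q-trace wells and 3 other cells. Their summed level was 7159, 14932 and 26340 CPM (lowest, median, highest) in C1q-high wells, 23.9, 206.9 and 17201 in C1q-trace wells and 0, 21.2 and 17300 in other cells. The 8 leukocyte genes, among them Ptprc (CD45), had a median sum of 6853 CPM in C1q-high wells, 58.5 in C1q-trace wells and 3.15 in other cells. The C1q-high wells were macrophage wells by these markers.

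Most C1q-trace wells did not carry the label. Smooth muscle genes at 200 CPM (at least 3 of 8) were found in 2 of 52 C1q-high wells, 15 of 32 C1q-trace wells and 83.7% of other cells, and fibroblast genes in 0 C1q-high wells, 19 C1q-trace wells and 56.6% of other cells. Of the 32 C1q-trace wells, 28 met the mark for a mesenchymal list (smooth muscle, pericyte or fibroblast) and not for leukocytes or macrophages, 3 for leukocytes or macrophages alone, 1 for none. Of the 52 C1q-high wells, 50 met it for leukocytes or macrophages alone and 2 for both. The 3 leukocyte or macrophage wells of low C1q included 045s O22, with 13589 CPM of Lyz2, 2816 of Adgre1 (F4/80) and 1158 of Ptprc, and 046s A12, with 9942 CPM of Cd74 and 2681 of Lyz2. The summed smooth muscle markers had medians of 209.4 CPM in C1q-high wells, 5780 in C1q-trace wells and 17651 in other cells, and fibroblast markers 67.8, 4791 and 2627.

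**Figure D2:**
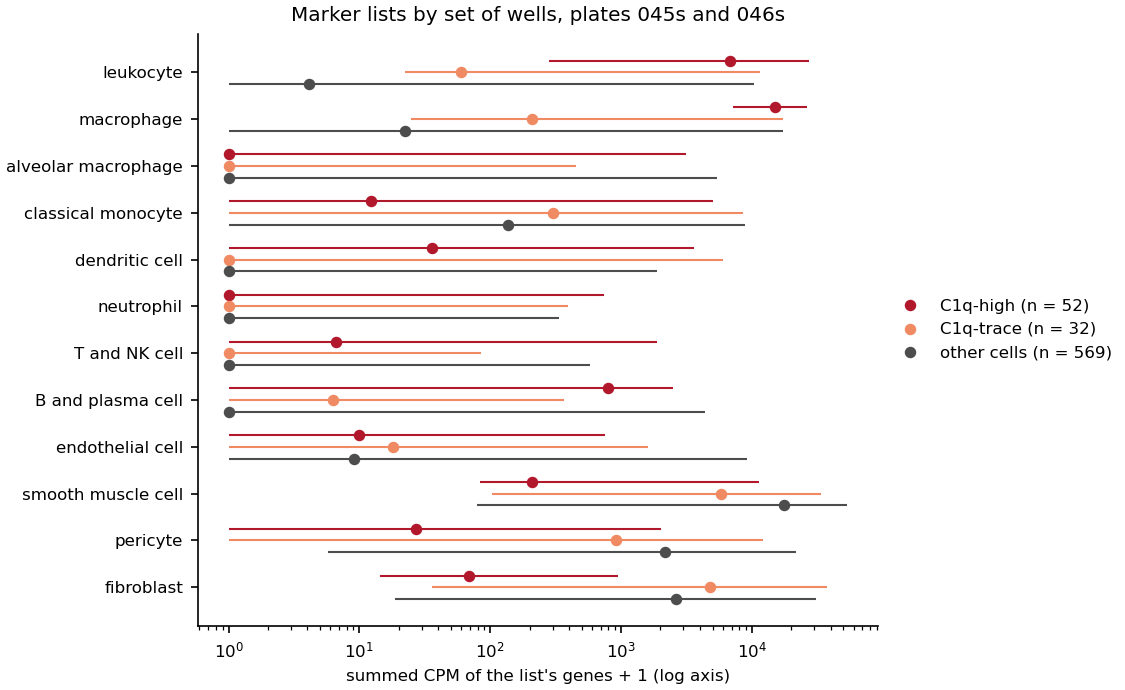
Summed CPM + 1 of each marker list, on a log axis, in C1q-high wells, C1q-trace wells and other cells of plates 045s and 046s; points are medians and lines run from the lowest to the highest well. Macrophage and leukocyte sums were high in C1q-high wells (medians 14932 and 6853 CPM), while C1q-trace wells held the smooth muscle and fibroblast markers of the other cells (medians 5780 and 4791 CPM).

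Lists of other lung leukocytes gave mixed values in the C1q-high wells. The alveolar macrophage list (12 genes) had a median sum of 0 CPM in C1q-high wells and in other cells, with 4 of its genes, among them the scavenger receptor gene Marco, at 0 in all C1q-high wells and Siglecf detected in 1. Its highest sums were 3114 and 5373 CPM, and 2 of 52 C1q-high wells and 1 other cell had at least 3 of its genes at 20 CPM. Il1rn and Atp6v0d2 of this list had log2 ratios of 6.31 and 4.48 in members and were not called. The interstitial macrophage list, which shares C1qa, C1qb, C1qc and Folr2 with the rule, had a median sum of 20601 CPM in C1q-high wells and 1157 in other cells. Its 9 genes outside the rule summed to 86.8, 11131 and 18731 CPM (lowest, median, highest) in C1q-high wells. Their sums were 33.8, 1023 and 27093 CPM in C1q-trace wells and 0, 1149.8 and 11977 CPM in other cells, so the ranges overlapped. The 5 genes of the plasmacytoid dendritic cell list had a median sum of 656.5 CPM in C1q-high wells and 92.6 in other cells, with at least 3 of them at 20 CPM in 16 of 52 C1q-high wells and 1 other cell. The nonclassical monocyte list had median sums of 513.01 and 1546 CPM, and the classical monocyte list 11.2 and 136.3. These sums mix genes of opposite direction. In members the nonclassical list held Nr4a1 at a log2 ratio of -0.92 and Itgal at 8.83, and the classical list Fn1 at -1.01 and Ccr2 at 6.65. None of these 4 genes was called. Neutrophil and mast cell sums had medians of 0 CPM in both, and the monocyte gene Ccr2 reached 20 CPM in 4 of 52 wells. The T cell receptor genes Cd3e and Cd3g and the plasmacytoid dendritic cell gene Ly6d were at 0 in all 52.

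C1q-trace wells lay where C1q-high wells were. C1q-high wells occupied 4 of 16 plate rows on 045s and 8 of 16 on 046s, and all 32 C1q-trace wells lay in those rows, 12 of them in row M of 046s. Leaving C1q-high wells out, cells that shared both a row and a column with a C1q-high well had a C1q count in 68.9% (exact binomial 95% interval 59.1 to 77.7) after thinning to 50000 counts. The share was 56.9% (44 to 69.2) for those sharing a row only, 27.7% (22.8 to 33.1) for those sharing a column only and 0.794% (0.0201 to 4.34) for those sharing neither. Unthinned shares were 99.03%, 89.2%, 64.8% and 9.52%, at median depths of 303895, 176575, 267674 and 273489 counts. These classes were chosen after the values were seen. On the plates of male mouse 2 and female mouse 1, cells outside the rule had a C1q count in 4.30% and 2.96% after thinning (8.31% and 4.85% unthinned).

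The same 4 classes held 16, 16, 0 and 0 C1q-trace wells. The ratio of C1qb to C1qa counts was 1.09 in C1q-high wells, 1.15 in C1q-trace wells, 1.17 in other cells of rows with a C1q-high well and 1.73 in rows without. The ratio of C1qc to C1qa counts was 1.02, 0.849, 0.934 and 1.09 in the same sets. Lyz2 counts per C1qa count were 1.53 in C1q-high wells, 12.6 in C1q-trace wells and 27.3 in the other cells of the shared rows. The part of shared rows and columns in the low C1q values was not tested, and the counts of called genes below are given for the C1q-high wells as well as for all members.

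**Figure D3:**
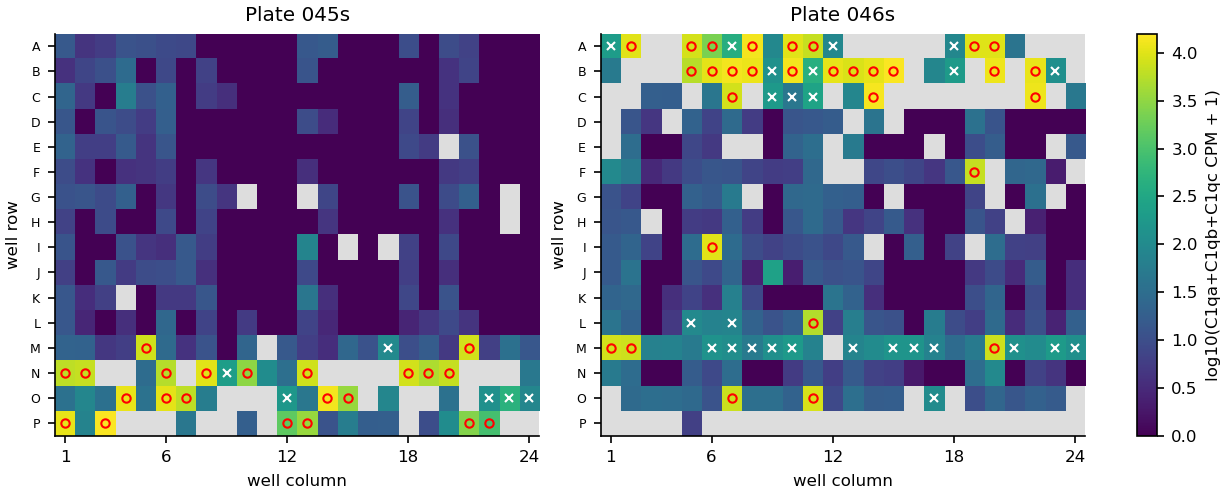
Summed C1q of each well, as log10 of CPM + 1 (colour), by plate row and column of plates 045s and 046s, with circles on C1q-high wells, crosses on C1q-trace wells and grey where no cell was analysed here. C1q-high wells lie in 4 rows of 045s and 8 rows of 046s, and low C1q values follow the rows and columns of C1q-high wells.

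Of the 2870 genes measured, 7.14% were at least 4-fold higher in the 84 members than in the other cells on each of the 2 plates, and 6.13% were at least 4-fold lower. Measured genes had at least 20 pooled CPM and a count in at least 50% of cells in members or in other cells. A gene that entered only through the members could not be called lower. A large share of a list called higher is thus in part fixed by this filter and does not support the label. For the 52 C1q-high wells alone, 10.9% of 3235 measured genes were called higher and 14.9% lower. These shares are the background for the list counts below. The C1q-high wells are part of the members and hold most of their counts, so the 2 sets of calls are not independent. The median log2 ratio over all measured genes was -0.15 for members and -0.05 for C1q-high wells. For C1q-trace wells alone 19 genes were called higher and 64 lower. These genes describe the contrast on which the rule was built, so no p is given. When each cell weighed the same (mean of per-cell CPM), 6.49% of measured genes were called higher and 2.47% lower, so that 72.5% of calls were higher, against 53.8% with summed counts.

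Spi1, which encodes the myeloid master regulator PU.1, had the largest ratio among called genes, with 641.7 pooled CPM in members and 0.338 in other cells (log2 ratio 10.89). In C1q-high wells it ran at 0, 721 and 2398 CPM and reached 20 CPM in 47 of 52, against 0 other cells. Genes counted in too few members to be called had larger ratios, such as Msr1 (11.75) and P2ry12 (11.36). The next called genes included Folr2 (10.78), the inhibitory collagen receptor gene Lair1 (10.72), Fcrls (10.58), Adgre1 (10.51), the secreted phospholipase gene Pla2g2d (10.48) and Cx3cr1 (10.40), all as log2 ratios of members to other cells. Haemoglobin scavenger receptor Cd163 (10.19), the sialic acid lectins Siglech (10.17) and Cd33 (9.39) and the coagulation factor XIII subunit gene F13a1 (10.02) followed. Cyth4, Pld4, Cd300ld, Gpr183, Fgd2, Ccl3, Ccl9 and Fcgr2b were also among the 25 largest ratios of called genes, as were Ms4a6b, Ms4a6c, Clec4a1 and Clec4a3, whose values are uncertain because each has close relatives with which the counting could share reads.

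**Figure D4:**
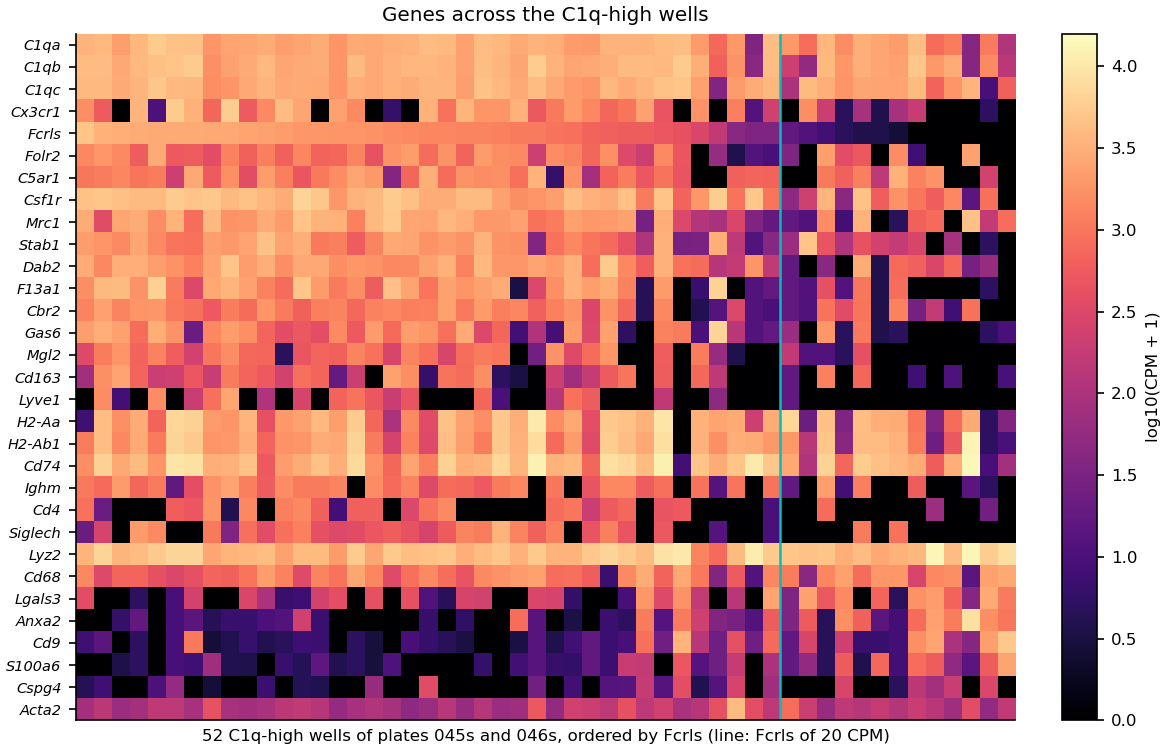
Genes (rows) across the 52 C1q-high wells (columns, ordered by Fcrls), with log10 of CPM + 1 as colour and a line at 20 CPM of Fcrls. Lyz2 and Acta2 were found in every well, while Lyve1, Ighm, Cd4 and Siglech were at 0 in some, and Lgals3, Anxa2 and Cd9 were higher to the right, where Fcrls was low.

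Of the 24 complement components and regulators on the list, 13 were measured, with 4 called higher and 1 lower in members, and 4 higher and 4 lower in C1q-high wells (median log2 ratio -0.46, against -0.05 over all measured genes). Without the 3 C1q chains, which chose the members, 1 of 10 measured was called higher and 1 lower in members. In C1q-high wells 1 of 10 was called higher and 4 lower (median -1.56). Over all measured genes 7.14% were higher and 6.13% lower in members, and 10.9% and 14.9% in C1q-high wells. Outside the rule genes the list thus did not stand out in members. The 4 higher genes of the full list were the 3 C1q chains and Cfp, which encodes properdin, the stabiliser of the alternative pathway convertase. Cfp had 0, 580.8 and 2808 CPM in C1q-high wells against 0, 0 and 359.3 CPM in other cells. The proteases that C1q activates were not among them: C1s1 had 4.97 pooled CPM in C1q-high wells and 529.2 in other cells, a called lower value, and C1ra had 35.5 and 148.9, which was not called. The C1 inhibitor gene Serping1 had 18.5 against 1123 CPM, clusterin (Clu) 51 against 1269.9, and the membrane attack inhibitor Cd59a 1.10 against 152.1, each called lower in C1q-high wells. C3 (184.7 against 254.8) and C4b (229.4 against 473.98) were called in neither direction, and C4b has a close relative that could share its reads.

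Of 11 listed complement receptors, 3 of 5 measured were called higher in members and 5 of 7 in C1q-high wells, where the median log2 ratio was 6.46. Without the rule gene C5ar1 the counts were 2 of 4 and 4 of 6 (median 5.92 in C1q-high wells). The background shares called higher were 7.14% and 10.9%. C3ar1, the C3a receptor, had 0, 684 and 2143 CPM in C1q-high wells and 0, 0 and 3799.8 CPM in other cells, and reached 20 CPM in 42 of 52 C1q-high wells and 2 other cells. C5ar1 had 0, 912 and 3471 CPM against 0, 0 and 1975 CPM. The complement receptor 3 chains Itgam and Itgb2 were at 197.2 and 255.8 pooled CPM in C1q-high wells, against 0.595 and 2.90 in other cells. Vsig4, a macrophage receptor for C3b, was present in few wells and reached 20 CPM in 7 of 52.

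Of 14 listed Fc receptors and ITAM adaptors, 6 of 7 measured genes were called higher in members and 11 of 12 in C1q-high wells (median log2 ratio 8.99). Without the rule gene Fcrls they were 5 of 6 and 10 of 11 (8.54). Fcgr1, Syk, Trem2, Clec7a and Clec4n were measured only in the comparison of C1q-high wells, where each was called higher. They entered through the C1q-high wells, so they could not be called lower there. The shares of all measured genes called higher were 7.14% in members and 10.9% in C1q-high wells. Fcgr3, an activating IgG receptor, had 0, 1089 and 10709 CPM in C1q-high wells and 0, 0 and 891 CPM in other cells. The inhibitory receptor Fcgr2b had 836 against 1.21 pooled CPM. The adaptor Tyrobp was present in every C1q-high well, at 32.8, 704 and 4516 CPM, and reached 20 CPM in 5 other cells. Trem2, a lipid-sensing receptor that signals through Tyrobp, reached 20 CPM in 33 of 52 wells, and Clec7a, the beta-glucan receptor dectin-1, in 24.

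Of 18 listed scavenger and uptake receptors, 6 of 7 measured were called higher in members and 8 of 9 in C1q-high wells (median log2 ratio 7.95). Without the rule gene Folr2 they were 5 of 6 and 7 of 8 (7.68). The mannose receptor gene Mrc1 had 0, 1932 and 5394 CPM in C1q-high wells against 0, 0 and 7124 CPM in other cells. Stab1, a scavenger receptor that clears modified proteins, had 1383 against 4.46 pooled CPM, and Cd36 840.0 against 32.4. Cd163 had 466.96 against 0.356 CPM and reached 20 CPM in 30 of 52 wells. Receptors of particular macrophage subsets were in fewer wells, with Lyve1 in 18, Cd209f in 8 and Timd4 in 6 of 52, and Cd5l at 0. Of 15 listed efferocytosis genes, 0 of 7 measured were called higher, against 7.14% of all measured genes in members and 10.9% in C1q-high wells. With 7 genes, a count of 0 is near these shares. The apoptotic cell receptor Mertk had 163.3 against 35.9 CPM in C1q-high wells. Its log2 ratio in members was 2.00, at the 4-fold limit, but it did not meet the full rule. Axl had 391.6 against 589.4 CPM, and their bridging ligand Gas6 1013 against 410.6. Mfge8 (69.3 against 1079.8) was called lower in C1q-high wells, as were 14.9% of all measured genes. Unmeasured genes of the list had log2 ratios in members from -5.35 (Tyro3) to 10.74 (Timd4).

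Of 15 listed genes of MHC class II antigen presentation, 9 were measured. All 9 were called higher in members and in C1q-high wells (median log2 ratio 6.15 in C1q-high wells). Over all measured genes the shares were 7.14% and 10.9%. H2-DMa, H2-DMb1 and Cd86 were under 20 pooled CPM in other cells, so they were measured only through the members. Such genes could not be called lower, and the count of 9 is in part fixed by the filter. H2-Aa had 0, 2516 and 10548 CPM in C1q-high wells, 8.48, 58.8 and 13961 CPM in C1q-trace wells and 0, 0 and 7749 CPM in other cells. Cd74 had 7.12, 3463 and 14069.7 CPM, 17.9, 79.9 and 9942 CPM and 0, 4.65 and 6893 CPM, and its pooled level was 3809.8 CPM in C1q-high wells (exact Poisson 95% interval 3777 to 3843) and 58.6 in other cells (57.5 to 59.8). The peptide loader subunits H2-DMa and H2-DMb1 had 681 and 416.1 against 9.61 and 6.32 CPM. The costimulatory ligand Cd86 had 389.3 against 4.29 CPM. Groups overlapped for H2-Aa, since 3 C1q-high wells lay under 20 CPM and 55 other cells above it. Class II genes have similar relatives, so single gene values are uncertain.

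Lysosomal genes differed less. Of 21 measured, 7 were called higher in members, and 9 of 22 in C1q-high wells, none lower (median log2 ratio 1.90). Over all measured genes, 7.14% were called higher in members and 10.9% in C1q-high wells. Cathepsin S (Ctss), which trims the invariant chain, had 27, 1918 and 8651 CPM in C1q-high wells and 0, 0 and 4466 CPM in other cells. Legumain (Lgmn) had 2628 against 317.5 pooled CPM and progranulin (Grn) 2230.3 against 461.9. Cathepsins B and D were high in both sets, with Ctsb at 3356 against 1284 and Ctsd at 1168 against 697 CPM, and were not called.

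Among cytokine receptors, 4 of 10 measured were called higher in members and 7 of 14 in C1q-high wells (median log2 ratio 2.14). The shares over all measured genes were 7.14% and 10.9%. Csf1r, the receptor for the macrophage growth factors CSF1 and IL-34, had 0, 3403 and 6792 CPM in C1q-high wells and 0, 0 and 2353 CPM in other cells, with pooled levels of 3127 (3098 to 3157) and 14.2 CPM (13.7 to 14.8). The interleukin 10 receptor chains Il10ra and Il10rb had 214.2 and 433.1 CPM against 3.62 and 60.5. Interleukin 10 itself reached 20 CPM in 11 of 52 C1q-high wells and 0 other cells. Il1b did so in 10, Tnf in 15 and the osteopontin gene Spp1 in 10 of 52 wells. The transforming growth factor genes Tgfb2 and Tgfb3 were called lower, with 0.584 and 5.62 CPM in C1q-high wells against 127.5 and 292.4 in other cells.

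Of 24 listed chemokines, 8 of 9 measured genes were called higher in members and 11 of 12 in C1q-high wells (median log2 ratio 6.66). The background shares over all measured genes were 7.14% and 10.9%. Pf4 had 0, 863 and 5090.4 CPM in C1q-high wells and 0, 0 and 3263 CPM in other cells. The monocyte attractants Ccl2, Ccl7, Ccl8 and Ccl12 had 518.4, 820.1, 632.1 and 355.9 pooled CPM in C1q-high wells against 8.90, 13.7, 4.82 and 4.54 in other cells. They varied widely between wells, Ccl7 from 0 to 8515 CPM. Each was under 20 pooled CPM in other cells, so it was measured only through its high side and could not be called lower. The exception was Cxcl12, the CXCR4 ligand, with 11.8 CPM in C1q-high wells against 404.6 in other cells. Of 17 listed attractant receptors, 5 of 6 measured were called higher in C1q-high wells, among them Ptafr, Lpar6, Ccr1 and the rule gene Cx3cr1. Without Cx3cr1 they were 4 of 5.

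Of 27 listed Toll-like receptor genes and helpers, 4 of 5 measured were called higher in members and 6 of 7 in C1q-high wells (median log2 ratio 5.21). The background shares were 7.14% and 10.9% of all measured genes. Tlr7 was measured only through the C1q-high wells, so it could not be called lower there. Cd14, the lipopolysaccharide co-receptor, had 0, 631.4 and 6279.7 CPM in C1q-high wells and 0, 0 and 2717 CPM in other cells. Unc93b1, which carries nucleic acid sensing receptors to the endosome, had 1580.0 against 42.7 pooled CPM, and its client Tlr7 reached 20 CPM in 25 of 52 wells and 1 other cell. Tlr4 had 73 against 19.7 CPM and was called in neither direction.

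Of 21 measured transcription factors of the macrophage lineage, 7 were called higher and 1 lower in members, and 8 and 2 of 23 in C1q-high wells. Over all measured genes the shares were 7.14% higher and 6.13% lower in members, and 10.9% and 14.9% in C1q-high wells, so that the lower counts of this list did not exceed the background. Maf, which holds macrophages in a differentiated state, had 541.96 pooled CPM in C1q-high wells against 11.9 in other cells. Irf8, Irf5, Runx1, Klf2 and Cebpa were also among those called higher in C1q-high wells. Bhlhe40 and Id3 were called lower, with 21 against 298.8 and 54.1 against 638.2 CPM. Zeb2 (315.7 against 253.8) was called in neither direction, and Pparg, a factor of alveolar macrophages, reached 20 CPM in 3 of 52 wells.

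Of 15 listed nucleotide receptor genes, 2 of 5 measured were called higher and 2 lower in members, and 5 and 2 of 8 in C1q-high wells. Over all measured genes 7.14% were higher and 6.13% lower in members, and 10.9% and 14.9% in C1q-high wells. P2ry6, P2ry12, P2ry13, P2rx4 and P2rx7 were called higher in C1q-high wells, and P2rx1 and P2ry14 lower. P2ry12, P2ry13 and P2rx7 were measured only through the C1q-high wells. P2ry6, a UDP receptor, had 0, 576.1 and 2099.6 CPM in C1q-high wells and 0, 0 and 879 CPM in other cells. P2ry12, an ADP receptor known as a marker of microglia, reached 20 CPM in 27 of 52 C1q-high wells and 0 other cells, with pooled levels of 296.8 and 0.0875 CPM.

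Of 25 listed lipid genes, 6 of 10 measured were called higher in members and 10 of 15 in C1q-high wells (median log2 ratio 3.32). The leukotriene genes Alox5, Alox5ap and Ltc4s had 305.8, 353.2 and 138.6 CPM in C1q-high wells against 0.117, 12.7 and 1.19 in other cells. The prostaglandin D synthase Hpgds had 545.6 against 0.95 CPM. Apoe was the most abundant gene of this list in C1q-high wells, at 49.4, 5113 and 12250.3 CPM, but other cells held 7.16, 1120.5 and 11223 CPM, and it was not called. Among 9 measured iron genes, haem oxygenase Hmox1 (498.3 against 37.2), Cd163 and Hfe were called higher, and the ferritin genes Fth1 (2423 against 2119) and Ftl1 (1515 against 390.5) were not. Over all measured genes, 7.14% were called higher in members and 10.9% in C1q-high wells.

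Of 9 measured genes of the matrix list, F13a1, Mmp9 and Plau were called higher in C1q-high wells. There 10.9% of all measured genes were called higher and 14.9% lower. F13a1 had 0, 1118 and 6431 CPM in C1q-high wells against 0, 0 and 243.96 CPM in other cells. Mmp9, the gelatinase B gene, reached 20 CPM in 23 of 52 C1q-high wells and 2 other cells. The mesenchymal genes Mmp2 and Timp3 were called lower, Timp3 with 52.9 against 2384 CPM. Immediate early and heat shock genes, known to respond to tissue dissociation, were close between the sets, with a median log2 ratio of 0.24 in C1q-high wells. Of 25 measured, 1 was called higher and 1 lower there, against 10.9% and 14.9% of all measured genes. Fos had 35.6, 4195 and 16495 CPM in C1q-high wells against 33.6, 3994 and 17158 CPM in other cells. Cell cycle genes were found in few cells, with Mki67 at 20 CPM in 5 of 52 C1q-high wells and in 3 of the far more numerous other cells. No gene of this list was measured in members and 1 was in C1q-high wells, so the calls say little about it. Every gene of the list had a positive log2 ratio in members, from 0.07 (Ccnb1) to 4.86 (Top2a), with Mki67 at 3.58.

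**Figure D5:**
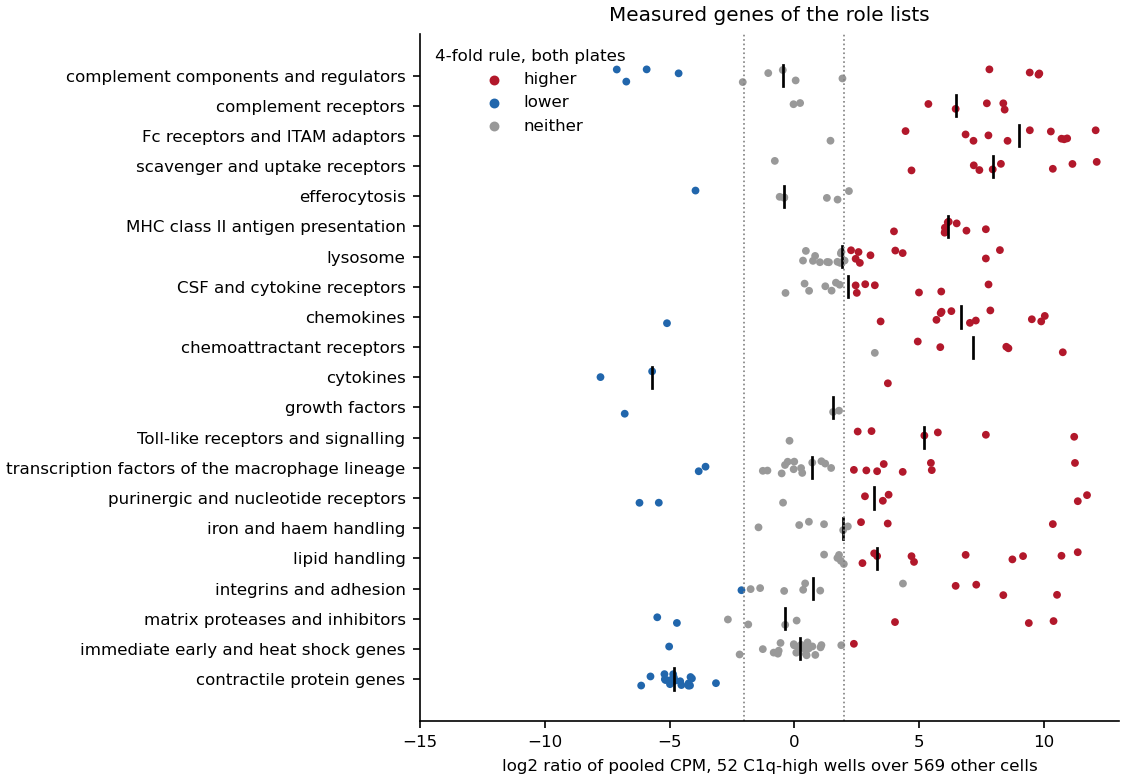
Log2 ratio of pooled CPM, 52 C1q-high wells over the other cells, for each measured gene of the role lists. Bars mark list medians, dotted lines 4-fold, and colours the call on both plates. Fc receptors, scavenger receptors and class II genes lie to the right (medians 8.99, 7.95 and 6.15) and contractile genes to the left (-4.81).

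Among genes lower in members, Rbpms2, an RNA-binding protein gene of smooth muscle, had the smallest ratio, with 4.87 pooled CPM in members and 182.9 in other cells (log2 ratio -5.23), followed by Pdlim3 (-4.77), Sh3bgr, Jam3, Atp6v0e2, Hspb7, Itih4, Tgfb2, Rasl11b and Gm11946. All 19 measured contractile genes were called lower in C1q-high wells (median log2 ratio -4.81), and 9 of 19 in all members. Acta2, whose promoter names the green reporter, had 48.7, 130.2 and 3968 CPM in C1q-high wells, 68, 2488 and 13572 CPM in C1q-trace wells and 52.3, 5480.4 and 20174 CPM in other cells. The 1 C1q-high well above 1000 CPM of Acta2 was 045s N1. Cspg4, which names the red reporter, had 0, 2.33 and 391.6 CPM in C1q-high wells and 0, 127.2 and 5595 CPM in other cells, and was not called. It reached 20 CPM in 13 of 52 C1q-high wells.

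Acta2 reached 20 CPM in 52 of 52 C1q-high wells and 100% of other cells. At least 3 smooth muscle markers reached 20 CPM in 25 of 52 C1q-high wells and at least 3 fibroblast markers in 11. Over all other classes together, plasmacytoid dendritic cells included, 39 of 52 had at least 3 markers of 1 such class. The part of RNA of other cell types in the results was not tested. The summed smooth muscle markers in C1q-high wells ran from 82.8 over 209.4 to 11373 CPM, and those of fibroblasts from 13.3 over 67.8 to 942. Median mitochondrial shares were 1.71% in C1q-high wells, 3.34% in C1q-trace wells and 1.65% in other cells, and the median number of genes at 50000 counts was 3011.5, 3161.5 and 3014.

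Some genes usually read as markers of other leukocytes were found in C1q-high wells. Ighm, the mu heavy chain of B cells, had 0, 769 and 2506 CPM in C1q-high wells and 0, 0 and 2009 CPM in other cells, and reached 20 CPM in 35 of 52. The 7 genes of the B and plasma cell list summed to 0, 788 and 2506 CPM in C1q-high wells and 0, 0 and 4416 in other cells, with 3 of the 7 at 0 in C1q-high wells and Cd79a in 1 of 52. Cd4 had 0, 5.15 and 1866 CPM in C1q-high wells and reached 20 CPM in 24, where 8 of the 11 T and NK cell genes, among them Cd3e and Cd3g, were at 0. Siglech, a marker of plasmacytoid dendritic cells that microglia also carry, had 0, 304.7 and 3439 CPM and reached 20 CPM in 30. Of its list of 5 plasmacytoid dendritic cell genes, 1 (Ly6d) was at 0 in C1q-high wells, and at least 3 reached 20 CPM in 16 of 52. These 3 genes reached 20 CPM in 6, 2 and 0 other cells. After thinning they were counted in 76.9%, 50% and 57.7% of C1q-high wells and in 4.22%, 1.41% and 2.46% of other cells.

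The C1q-high wells differed among themselves along Fcrls. Grouping by Fcrls was chosen after the values were seen, and the values are descriptions. Fcrls reached 20 CPM in 39 wells (13 on 045s and 26 on 046s) and not in 13 (9 and 4). Median F13a1 was 1821 CPM in the wells with Fcrls and 4.12 in those without, Csf1r 3956 and 604.7, Stab1 1499 and 105.9, and the endocytic adaptor Dab2 1962 and 44.2. The C-type lectin gene Mgl2 had medians of 664.9 and 0, and Cx3cr1 1211 and 3.78. Genes with the opposite order were the galectin 3 gene Lgals3, with a median of 8.22 CPM in wells with Fcrls and 697 in those without, annexin A2 (Anxa2), with 5.49 and 828, and the tetraspanin gene Cd9, with 5.88 and 101.05. Lyz2 was close, at 4151 and 4612, and C1qa stood at 3069 and 1573. Depth had medians of 247698 and 242785 counts and the mitochondrial share 1.52% and 2.12%, and the ranges of the 2 groups overlapped for each of these genes. The highest mitochondrial share was 7.34% in wells with Fcrls and 14.1% in those without.

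Another division, also chosen after the values were seen, followed Lyve1, the hyaluronan receptor that marks perivascular macrophages. Lyve1 reached 20 CPM in 18 C1q-high wells (4 on 045s and 14 on 046s) and not in 34 (18 and 16). All 18 also had Folr2, Fcrls and F13a1 at 20 CPM, against 23, 21 and 17 of the 34. Median F13a1 was 2477 CPM in wells with Lyve1 and 167.8 in those without, Gas6 1366 and 88, and Stab1 1952 and 357.9. Median H2-Aa was 1982 CPM in wells with Lyve1 and 2953 in those without, but the ranges overlapped (98.4 to 9369 and 0 to 10548), H2-Aa reached 20 CPM in 18 of 18 and 31 of 34, and its Spearman rho with Lyve1 was -0.01 over the 52 wells. The lectin gene Cd209f reached 20 CPM in 7 of 18 and 1 of 34, Timd4 in 4 and 2, and Ccr2 in 0 and 4. C1qa did not follow this division, with medians of 2941 and 2744 CPM.

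Across the 84 members, the genes whose CPM ranked most like C1qa were C1qb (Spearman rho 0.95), C1qc (0.86), Lgmn (0.80), Cd14 (0.78) and Fcer1g (0.78). These members include 32 C1q-trace wells, of which 28 met the mark for a mesenchymal list alone, so the ranks do not describe C1q-high wells alone. Within the 52 C1q-high wells the genes ranked most like C1qa were C1qb (0.92), C1qc (0.78) and the cystatin gene Cst3 (0.76). Lgmn stood at 0.60 there, and Cd14 and Fcer1g were not among the highest genes, which ended at 0.54. Fcrls ranked most like Ap1b1 (0.69), Mgl2 (0.67) and Csf1r (0.66), and least like Anxa2 (-0.62) and the mitochondrial gene mt-Rnr1 (-0.61). The mitochondrial genes mt-Nd2 (-0.50), mt-Cytb (-0.49) and mt-Nd1 (-0.48) were also among the lowest. H2-Aa ranked with H2-Ab1 (0.91), H2-Eb1 (0.87) and Cd74 (0.83). All wells come from 1 mouse and share plates and library depth; rho with total counts was -0.15 for C1qa, 0.27 for Fcrls and -0.01 for H2-Aa.

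The 2 plates of the same mouse differed in these wells. The median summed C1q was 6809 CPM in the 22 C1q-high wells of 045s and 10118 in the 30 of 046s. Fcrls reached 20 CPM in 13 of 22 and 26 of 30, Folr2 in 13 and 28, Cx3cr1 in 11 and 24, Ighm in 10 and 25, and Siglech in 7 and 23. Lyz2 was close, with medians of 4069 and 4499 CPM. Both plates hold cells of 1 animal, and the sources used here do not give how cells were assigned to plates.

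The 3 members of male mouse 2 (wells A12, A16 and F6 of their plate) were all C1q-high. C1qa stood at 2365, 1036 and 3962 CPM, C1qb at 3050, 1779 and 5287, and C1qc at 2052, 488.7 and 3869. C5ar1 had 508.4, 1271 and 1064 CPM, Lyz2 7588, 16224 and 7630. Cspg4 had 499.04, 488.7 and 0 CPM. Cx3cr1 was at 0 in all 3, Folr2 had 373.1, 0 and 0, and Fcrls 0, 0 and 1726. Cd163, Ighm and Lyve1 were at 0 in all 3 wells. Wells A12 and A16 carried Spp1 (3344 and 5727 CPM), fibronectin (Fn1, 6175 and 5102), Lgals3 (2010 and 1544) and Cd9 (1968 and 1857), each of which was at 0 in F6, where Cd74 (20363 CPM) and H2-Aa (11438 CPM) were high.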

How the data were processed

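Single-cell RNA was measured by Smart-Seq2 in 1376 sorted mouse lung cells. Plates 045s (349 cells) and 046s (304) hold male mouse 1, 131s (352) male mouse 2 and 505s (371) female mouse 1; the other cells of 045s and 046s number 569. Each value deposited by the authors is a whole-number count of reads for an Ensembl gene in a cell, per the file headers. Tools named in the submitters' processing notes are featureCounts, Subread, Bowtie2, Bowtie and bcl2fastq, with the builds mm10 and GRCm38; versions, and the handling of strand, multi-mapping and duplicate reads, are not given in the sources used here. Overlapping or antisense genes therefore cannot be told apart. Of 46517 genes, 46005 took a symbol from GENCODE M21, and 118 with a shared symbol kept their identifier.

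CPM was computed per cell over all genes and members were chosen by the rule, so the authors' total counts (50835 to 1074103 per cell) set the precision. Levels of sets are summed counts over summed totals. A gene was called at a 4-fold or larger ratio on each of plates 045s and 046s, with at least 20 CPM and a count in at least 50% of cells on the higher side, and a sum under 3 counts was set to 3. Among members 205 genes were called higher and 176 lower, and in C1q-high wells 351 and 481. Both plates hold 1 mouse, so no test was run. Thinning drew 50000 counts per cell (seed 1). Named genes are the 7 rule genes, the 25 largest and 10 smallest ratios, the genes of the role and marker lists and the 5 genes ranked most like C1qa. Genes beyond these were named after their values were seen. The members and lists were chosen with earlier results of these data known. The alternatives were other member rules, other sets of other cells, TMM scaling, mean CPM, thinning, other folds and leaving out a plate. Scripts were tested on simulated data. Python 3.11.15, numpy 2.4.6, pandas 2.3.3, scipy 1.17.1, matplotlib 3.10.9, R 4.3.3 and edgeR 4.0.16 (TMM factors only) were used.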

Additional observations from a re-analysis of the deposited data

Results flagged for a closer look

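On the plates of male mouse 2 and female mouse 1, cells outside the rule had a median summed C1q of 0 CPM, but 1 cell on each stood far above the level that a count of 0 allows (3 counts, 10.3 and 30.6 CPM in these cells). Well N16 of male mouse 2 had 875 CPM of summed C1q, with 669 of C1qb, 851 of Lyz2 and 2971 of Cd74, and 2 of the 7 rule genes at 20 CPM. Well F14 of female mouse 1 had 1378 CPM, with 1235 of C1qb, 0 of C1qa and 1460 of Lyz2 beside 1092 of Acta2, and also 2 rule genes. The lowest C1q-high well had 908 CPM. These wells were picked out because they lie in cells that the comparisons do not use, and their cause was not tested.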

How the results depend on the processing

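The number of members was 61 at 50 CPM, 66 with at least 4 rule genes, 80 with all 3 C1q chains and 60 with at least 2000 genes and 100000 counts, against 87 (6.32% of all cells); at 10 CPM members were 9.23% of all cells and with at least 2 rule genes 7.92%. The percent of measured genes called higher and lower in members (7.14 and 6.13) was 3.86 and 1.40 at 10 CPM, 10.3 and 13.8 at 50 CPM, 5.60 and 3.24 with at least 2 rule genes, 9.51 and 12.6 with at least 4, and 6.49 and 2.47 with mean CPM. It was 9.72 and 15.004 without members carrying 3 markers of another class, 9.88 and 17.8 with plate 046s left out, 7.503 and 7.41 with plate 045s left out, and 7.63 and 2.27 after thinning, where fewer genes (1677 against 2870) were measured. At 2-fold it was 12.3 and 18.7, at 8-fold 5.23 and 1.05, with no filter 4.81 and 7.52 of 24427 genes, in C1q-high wells 10.9 and 14.9, and in C1q-trace wells 0.713 and 2.40. The other settings stayed within 1.5 times. The last pair of settings was chosen after seeing the data. Of the genes called in members, 51.2% of the higher and 20.5% of the lower ones were still called at 10 CPM, 76.6% and 45.5% with at least 2 rule genes, 90.7% and 36.4% with mean CPM, 61.95% and 21.02% after thinning, and at least 79.5% under the other sets of members or other cells apart from C1q-trace wells. Genes called higher at 10 CPM fell to 0 of 3 for iron, 1 of 4 for cytokine receptors, 1 of 4 for integrins and 1 of 3 for attractant receptors. Over 17 settings, 2128 of 2142 values of called named genes kept their sign and 2037 stayed at 4-fold or more. The 14 that reversed did so in C1q-trace wells alone, at log2 ratios of -0.13 for C3ar1, -0.80 for Sirpa, -0.28 for Ctsa, -0.52 for Ctsh, -0.82 for Il6ra, -1.22 for Il10rb, -0.63 for Tnfrsf1b, -0.68 for Ptafr, -0.15 for Tlr2, -0.19 for Unc93b1, -0.91 for P2ry6, -0.98 for Hfe, -0.15 for Plin2 and -0.53 for Ms4a7; the cause was not tested. No paired analysis was possible because the compared sets are cells of 1 mouse and the result comes from no test. Depth limits the C1q-trace wells, where 20 CPM stood for 1.89 counts in the median well.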
